A study of Mus musculus with 6 samples.

Results

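The 10 genes described here encode the contractile apparatus of smooth muscle and myofibroblasts and 2 markers of the pericytes that wrap capillaries. They are Acta2, Tagln, Myl9, Cnn1, Myh11, Smtn, Actg2, Lmod1, Rgs5 and Pdgfrb, taken by symbol from a GENCODE M21 name table on the mouse build GRCm38. All 10 were found among the 47729 gene IDs of the count table, and all 10 were among the 17365 genes with enough counts to test. Expression was measured by stranded, poly(A)-selected RNA sequencing of tissue from the left ventricle, taken 9 days after transverse aortic constriction (TAC), surgery that narrows the aorta and makes the ventricle pump against raised pressure. There were 3 libraries of a control group and 3 of a group labelled Treg, which according to the series title received a systemic dose of regulatory T cells induced in culture and deprived of CD28 signalling. All mice had the operation; the treatment of the control group and the strain, sex and age of the mice are absent from the labels. The samples are whole tissue, labelled as cardiomyocytes with other cells, so each value is a sum over all cell types of the piece.

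Smooth muscle contracts when myosin light chain in the thick filament is phosphorylated and the motor slides along filaments of smooth muscle actin, while calponin, transgelin, smoothelin and leiomodin bind or build the actin filament. Most of these genes are driven by serum response factor (SRF) with its partners myocardin and the myocardin-related factors, which bind a short element called the CArG box. In the heart the genes are read from the walls of coronary vessels and from pericytes, from fibroblasts that turn into myofibroblasts under load, and some of them also from cardiomyocytes.

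RefSeq promoter windows (build GRCm38.p6) were at hand for 6 of the 10 genes: Acta2, Myl9, Cnn1, Smtn, Lmod1 and Rgs5. The 250 bases upstream of each gene start were searched for the CArG box (which reads the same on both strands), for the same box with 1 G or C in its A/T core, and for GGAATG, the core recognised by TEAD factors, on both strands. The CArG box was present in 1.47% of all 32851 windows, the relaxed box in 7.24% and GGAATG in 12.64%. Myl9 held 1 box of each CArG kind and Acta2 held 2 relaxed boxes; Cnn1, Smtn, Lmod1 and Rgs5 held neither kind in this window. GGAATG was found in the windows of Acta2, Smtn and Lmod1. The boxes of Acta2 and Myl9 are shown because both genes hold a relaxed box and differed in their values below. Acta2 holds no full CArG box in this window. A link between the boxes and the levels was not tested. Each is printed 5′ to 3′ on the strand of the gene with 10 flanking bases on each side and the box in capitals.
Myl9, CArG box, 161 to 152 bases upstream (chr2:156775293-156775322, plus strand): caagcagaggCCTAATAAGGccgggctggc
Myl9, relaxed box, 99 to 90 bases upstream (chr2:156775355-156775384, plus strand): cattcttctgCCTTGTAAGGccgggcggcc
Acta2, relaxed box, 84 to 75 bases upstream (chr19:34255438-34255467, minus strand): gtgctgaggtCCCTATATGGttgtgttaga
Acta2, relaxed box, 34 to 25 bases upstream (chr19:34255388-34255417, minus strand): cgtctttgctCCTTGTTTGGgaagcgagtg
Both Acta2 stretches overlap an exon that GENCODE annotates for Acta2, and the Myl9 stretches overlap none of Myl9.

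Library totals lay between 28937253 and 29979080 counts. Control replicate 3 stood apart: its level was more than 2-fold above that of each other library for 406 genes and more than 2-fold below for 751, against 3 to 49 and 5 to 59 genes in the others. The 12 ventricular cardiomyocyte markers, all with enough counts to test, summed to 41490.0 CPM (counts scaled to the normalized library size) in control replicate 3, 55841.6 and 62843.4 in the other controls, and 50121.3 to 67048.2 in the Treg libraries. Neutrophil markers (6 of 9 with enough counts to test) summed to 36.9 CPM in control replicate 3, 6.84 and 9.37 in the other controls and 8.35 to 18.7 in the Treg libraries; their defining gene Ly6g was at 0 in all controls. Treg replicate 3 held atrial tissue transcripts: Myl7 stood at 37.7 CPM there and at 0.0330 to 0.216 elsewhere, and the 8 atrial markers summed to 214.5 CPM there, 86.1 and 87.2 in the other Treg libraries and 59.2 to 85.1 in the controls. The 15 endothelial markers summed to 4713.6 CPM in control replicate 3, 2906.4 and 2252.6 in the other controls and 2252.2 to 2780.3 in Treg. Gene by gene the excess was smaller. The median of their log2 CPM minus the 6-library mean was 0.14 in control replicate 3 and −0.27 to 0.06 in the others. The part of control replicate 3 and Treg replicate 3 in the results below was examined by leaving them out.

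By edgeR's quasi-likelihood test over all genes, 0 of the 10 genes differed between the groups at an adjusted p under 0.05. The background was the same: 0 of 17365 genes passed (0%), with 0.0847 as the smallest adjusted p. Unadjusted, 3 of the 10 had a p under 0.05 (Myh11, Smtn and Myl9), as did 16.5% of all genes. Of these, 2 were higher in the Treg libraries and 1 lower, beside 8.23% and 8.31% of all genes. The groups did not overlap for 3 of the 10 (Myh11, Smtn and Lmod1), all higher in Treg, beside 13.7% of all genes in that direction and 25.4% in either. The median log2 fold change was 0.11 over the 10 genes and −0.02 over all genes. The list therefore had no common direction, with 5 values above 0 and 5 below, and its members are described singly.

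**Figure D1:**
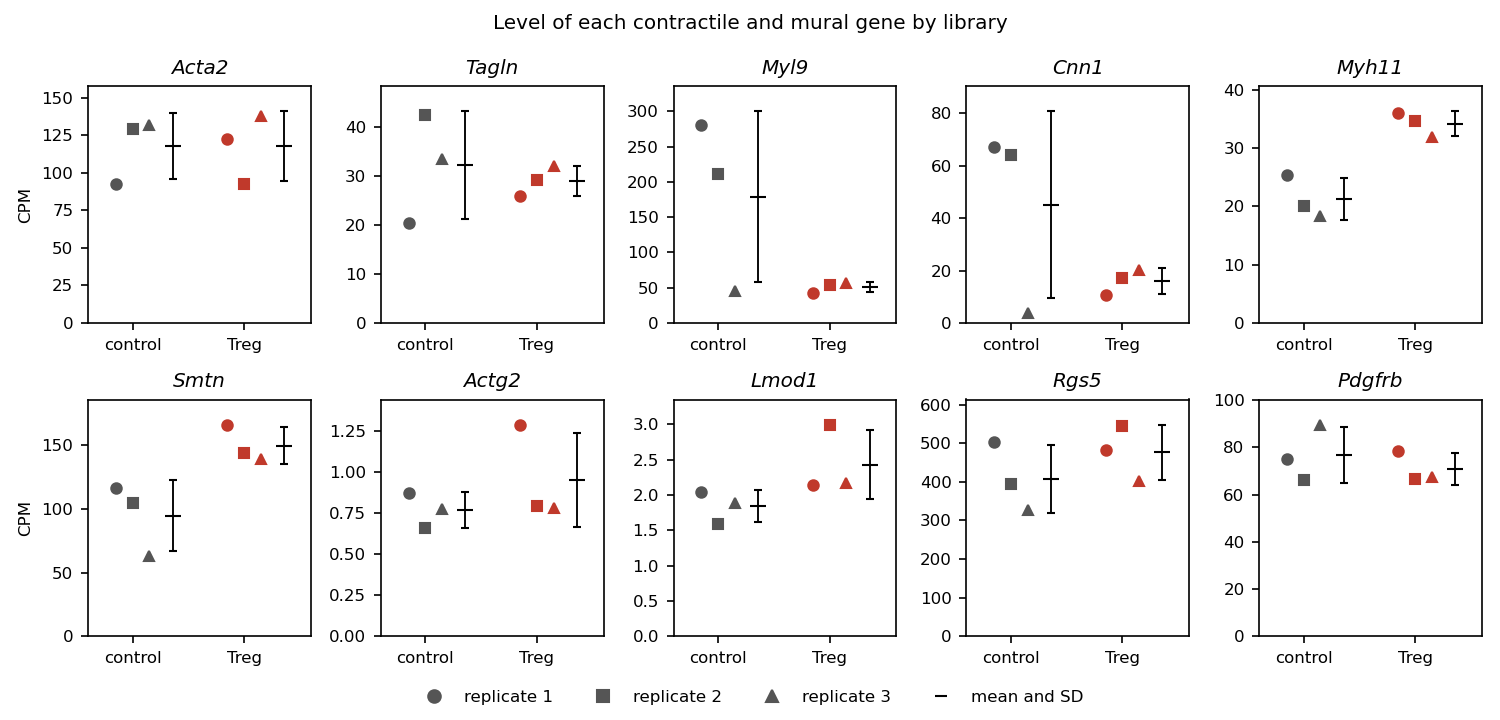
Level of each of the 10 genes in CPM (vertical axes, each from 0) in the control (grey) and Treg (red) libraries; symbols mark the replicate number, and the black bar is the mean ± SD of the group. Myl9 and Cnn1 are high in control replicates 1 and 2 alone, Myh11, Smtn and Lmod1 are higher in all 3 Treg libraries than in any control, and Acta2 has nearly the same mean in both groups.

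Acta2 and Tagln, the most used markers of myofibroblasts, did not separate the groups. Acta2, smooth muscle alpha-actin (chromosome 19, 34241090 to 34255590), stood at 92.4, 129.2 and 131.6 CPM in control replicates 1, 2 and 3 and at 122.5, 92.4 and 138.0 CPM in Treg replicates 1, 2 and 3. Each group thus had 1 low library and 2 higher ones, and the group means were 117.7 ± 22.0 and 117.6 ± 23.2 CPM (mean ± SD, n = 3 per group, as throughout). The log2 fold change was 0.00 ± 0.20 (SE; edgeR adjusted p = 0.998). Tagln, transgelin, an actin-bundling protein (chromosome 9, 45929619 to 45936058), had 20.4, 42.4 and 33.4 CPM in the controls and 25.8, 29.1 and 31.9 CPM in the Treg libraries. The Treg values lay inside the range of the controls, and the log2 fold change was −0.15 ± 0.25 (edgeR adjusted p = 0.778). In whole tissue, fewer cells of a type and less RNA per cell cannot be told apart, so equal levels do not show equal numbers of contractile cells.

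Myl9 and Cnn1 had the largest differences of the 10, both lower in Treg, and both rested on control replicates 1 and 2. Myl9, the regulatory light chain of smooth muscle myosin (chromosome 2, 156775420 to 156781658), had 280.5, 211.5 and 45.2 CPM in the controls and 43.1, 53.7 and 56.1 CPM in the Treg libraries. Control replicates 1 and 2 were far above every other library, while control replicate 3 lay among the Treg values, so the groups overlapped. The means were 179.1 ± 121.0 and 51.0 ± 6.91 CPM, a log2 fold change of −1.81 ± 0.57 (a ratio of 0.285; edgeR adjusted p = 0.225). Cnn1, calponin, an actin-binding inhibitor of smooth muscle myosin (chromosome 9, 22099216 to 22109630), had 67.3, 64.0 and 3.90 CPM in the controls and 10.7, 17.1 and 20.3 CPM in the Treg libraries. Control replicate 3 was here below all Treg libraries and the other controls above them. The means were 45.1 ± 35.7 and 16 ± 4.86 CPM, and the log2 fold change was −1.49 ± 0.83 (edgeR adjusted p = 0.402).

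Without control replicate 3 both genes passed the test. That library held the lowest control value of each, so leaving it out had to widen the difference. The p-values that follow are therefore no independent support for it. The log2 fold change of Myl9 was then −2.27 ± 0.17 (edgeR adjusted p = 0.00474) and that of Cnn1 −2.03 ± 0.24 (edgeR adjusted p = 0.0294), and each remaining control lay above every Treg library. In that comparison 230 of 17648 genes passed (1.3%), of them 111 lower in Treg (0.629%). With Treg replicate 3 left out as well the values were −2.35 and −2.25 (edgeR adjusted p = 0.017 and 0.0251), beside 0.684% of all genes called. Over all alternative analyses the adjusted p lay between 0.00474 and 0.609 for Myl9 and between 0.0251 and 0.746 for Cnn1, and limma-voom gave Cnn1 a log2 fold change of −0.72. Control replicate 3 also had the lowest summed cardiomyocyte markers and the highest summed neutrophil and endothelial markers given above. Their part in the low Myl9 and Cnn1 of that library was not tested.

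**Figure D2:**
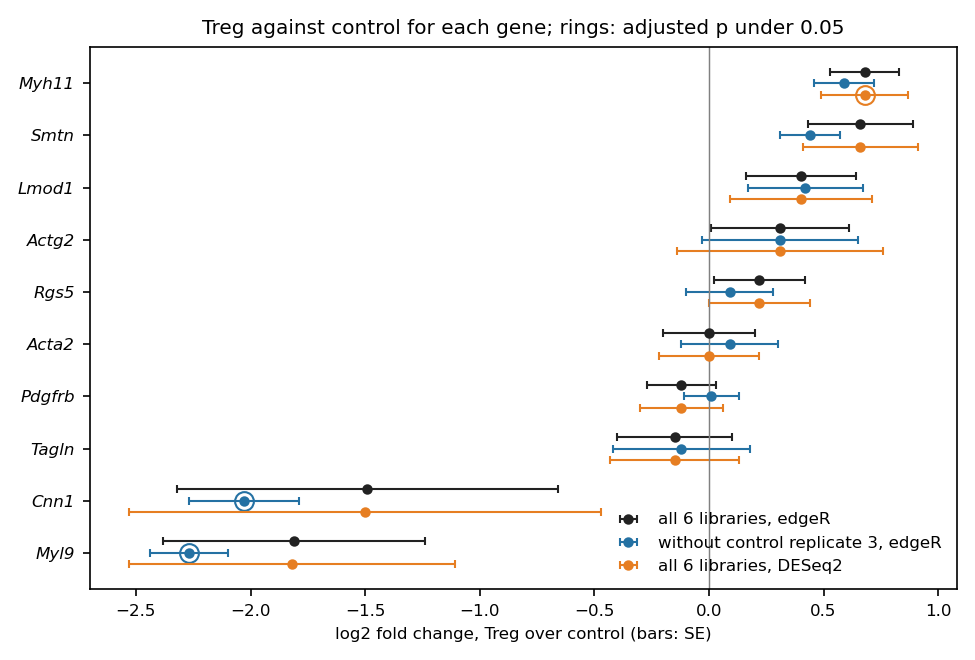
Log2 fold change of Treg over control for each gene (horizontal axis; points with SE bars) in edgeR with all 6 libraries (black), in edgeR without control replicate 3 (blue) and in DESeq2 with all 6 libraries (orange); a ring marks an adjusted p under 0.05. Rings are found on Myl9 and Cnn1 without control replicate 3 and on Myh11 in DESeq2; Acta2, Tagln and Pdgfrb stay within 0.15 of 0 in all 3.

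Myh11 and Smtn, which are held to mark mature, contracting smooth muscle most closely, were higher in all Treg libraries. Myh11, the smooth muscle myosin heavy chain (chromosome 16, 14194535 to 14291372), had 25.3, 20.1 and 18.4 CPM in the controls and 36.0, 34.7 and 31.9 CPM in the Treg libraries. The lowest Treg value was above the highest control, and the spread within each group was small (21.3 ± 3.57 and 34.2 ± 2.09 CPM). The log2 fold change was 0.68 ± 0.15, a ratio of 1.61 (edgeR adjusted p = 0.148). DESeq2 called it (adjusted p = 0.0136), along with 3.9% of the 16673 genes to which it gave an adjusted p; over all alternatives the adjusted p was 0.0136 to 0.593.

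Smtn, smoothelin, a protein bound to the actin filaments of contractile smooth muscle (chromosome 11, 3517523 to 3540612), had 116.3, 104.4 and 63.2 CPM in the controls and 165.7, 143.5 and 138.8 CPM in the Treg libraries. All Treg values were above all controls, and control replicate 3 was the lowest. The log2 fold change was 0.66 ± 0.23, a ratio of 1.58 (edgeR adjusted p = 0.254; 0.127 to 0.615 over the alternatives), and 0.44 without control replicate 3. On the opposite strand Smtn overlaps Gm11946, a transcript at 6.43 to 9.66 CPM in the controls and 5.73 to 7.44 in Treg, and 7.4% of the 101-base windows of the Smtn transcript match it. Tagln likewise overlaps Pcsk7 on the opposite strand (32.91% of its windows shared with Pcsk7 or Gm48529), and Pcsk7 stood at 19.3 to 23.6 CPM over the 6 libraries with a log2 fold change of −0.02. The labels do not state whether the counting used the strand, so reads of these overlaps may have been assigned to either gene. The other 8 genes had 0% of such windows in common with another gene's transcripts, the actin genes Acta2 and Actg2 included.

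Actg2 and Lmod1 had the fewest counts of the 10. Actg2, the gamma-actin of gut and other visceral smooth muscle (chromosome 6, 83512905 to 83536265), had 25, 20 and 23 counts in control and 39, 22 and 25 in Treg, with the single high value in Treg replicate 1. Lmod1, leiomodin, which nucleates actin filaments in smooth muscle (chromosome 1, 135324807 to 135368065), had 58, 48 and 56 counts in control and 65, 83 and 69 in Treg. All its Treg values were above the controls, by a narrow margin at 2.14 against 2.04 CPM. The log2 fold changes were 0.31 ± 0.30 and 0.40 ± 0.24 (edgeR adjusted p = 0.613 and 0.42).

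The pericyte genes did not separate the groups. Rgs5, a regulator of G protein signalling that is abundant in pericytes (chromosome 1, 169655501 to 169695813), had the most counts of the 10, at 9740 to 15071 per library. It had 502.6, 394.4 and 327.9 CPM in the controls and 483.0, 543.5 and 401.2 CPM in the Treg libraries, with overlapping groups and a log2 fold change of 0.22 ± 0.20 (edgeR adjusted p = 0.589). Pdgfrb, the receptor through which platelet-derived growth factor recruits pericytes and which fibroblasts also carry (chromosome 18, 61045150 to 61085061), had 74.9, 66.1 and 89.5 CPM in the controls and 78.5, 66.7 and 67.4 CPM in the Treg libraries. The groups overlapped here too, with a log2 fold change of −0.12 ± 0.15 (edgeR adjusted p = 0.701).

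Levels per length of exon allow different genes to be set side by side. The order of the group means differed at Myl9 and Cnn1, and this rested on control replicates 1 and 2. In control, Myl9 was first at 154.1 ± 104.1 CPM per kilobase, followed by Rgs5 at 89.8 ± 19.4, Acta2 at 53.6 ± 10, Smtn at 21.6 ± 6.36, Cnn1 at 16.5 ± 13.0, Tagln at 16.1 ± 5.55 and Pdgfrb at 14 ± 2.16. Among neighbours in this order, Myl9 and Rgs5, Smtn and Cnn1, Cnn1 and Tagln, and Tagln and Pdgfrb each differed by less than the larger SD of the pair. In Treg, Rgs5 was first at 104.7 ± 15.7, followed by Acta2 at 53.6 ± 10.6, Myl9 at 43.9 ± 5.94, Smtn at 34.1 ± 3.28, Tagln at 14.5 ± 1.55, Pdgfrb at 12.9 ± 1.21 and Cnn1 at 5.86 ± 1.78. Here Acta2 and Myl9 differed by less than the SD of Acta2. Control replicate 3 by itself also had Rgs5 first at 72.1, then Acta2 at 59.9 and Myl9 at 38.9. Its Cnn1 stood at 1.43, below Pdgfrb at 16.3. Myh11 stood at 2.80 ± 0.470 and 4.5 ± 0.274 CPM per kilobase in control and Treg, and Actg2 and Lmod1 were the lowest in both groups, at 0.465 to 0.617.

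**Figure D3:**
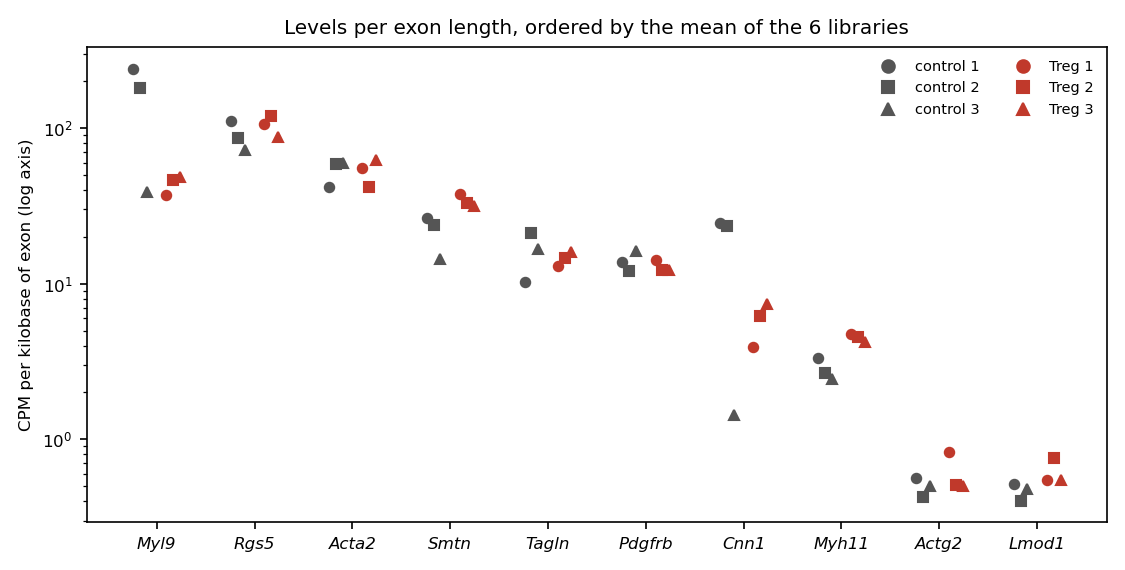
Levels per kilobase of exon (vertical log axis) of the 10 genes, ordered by their mean over the 6 libraries; grey symbols are control and red Treg libraries, and the shape gives the replicate number. Control replicates 1 and 2 are at 241.4 and 182.0 for Myl9 and 24.6 and 23.4 for Cnn1, far above the other 4 libraries, while the libraries of Acta2, Rgs5 and Pdgfrb lie close together.

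Ratios within a library do not depend on its scaling. Per 100 CPM of Acta2, Myl9 had 303.6, 163.7 and 34.4 in control replicates 1, 2 and 3 and 35.2, 58.2 and 40.6 in Treg. Cnn1 had 72.9, 49.6 and 2.97 in control and 8.78, 18.5 and 14.7 in Treg. Control replicates 1 and 2 stood above all Treg libraries in both ratios and control replicate 3 below them. Myh11 had 27.4, 15.6 and 14 per 100 CPM of Acta2 in control and 29.4, 37.6 and 23.1 in Treg. Smtn had 125.9, 80.8 and 48.0 in control and 135.3, 155.3 and 100.6 in Treg. On this scale the groups overlapped for both genes. Tagln had 22.1, 32.8 and 25.4 per 100 CPM of Acta2 in control and 21, 31.5 and 23.1 in Treg. Its groups overlapped as well, and the ratio varied within each group.

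The 10 genes fell into patterns of variation by the root mean square difference of their log2 CPM deviations from the 6-library mean, given here as a description over 6 libraries. Myh11 and Smtn were the closest pair, at 0.18, followed by Lmod1 and Rgs5 at 0.21. Acta2 with Tagln, Myh11 with Lmod1 and Myh11 with Rgs5 came next, each at 0.25. Myl9 and Cnn1 differed by 0.68 from each other and by 1.09 to 1.54 from the other 8. Among 12642 genes that averaged 1 CPM or more, the 5 most like Acta2 were Reep4, Tbc1d1, Pcna, Chst2 and Pold1 (differences of 0.06 to 0.08), of which Pcna and Pold1 serve DNA replication. The 5 most like Rgs5 were Sgca, a sarcoglycan of the muscle membrane, Pxmp4, Asrgl1, Tbc1d7 and Polr3gl (0.04 to 0.07).

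**Figure D4:**
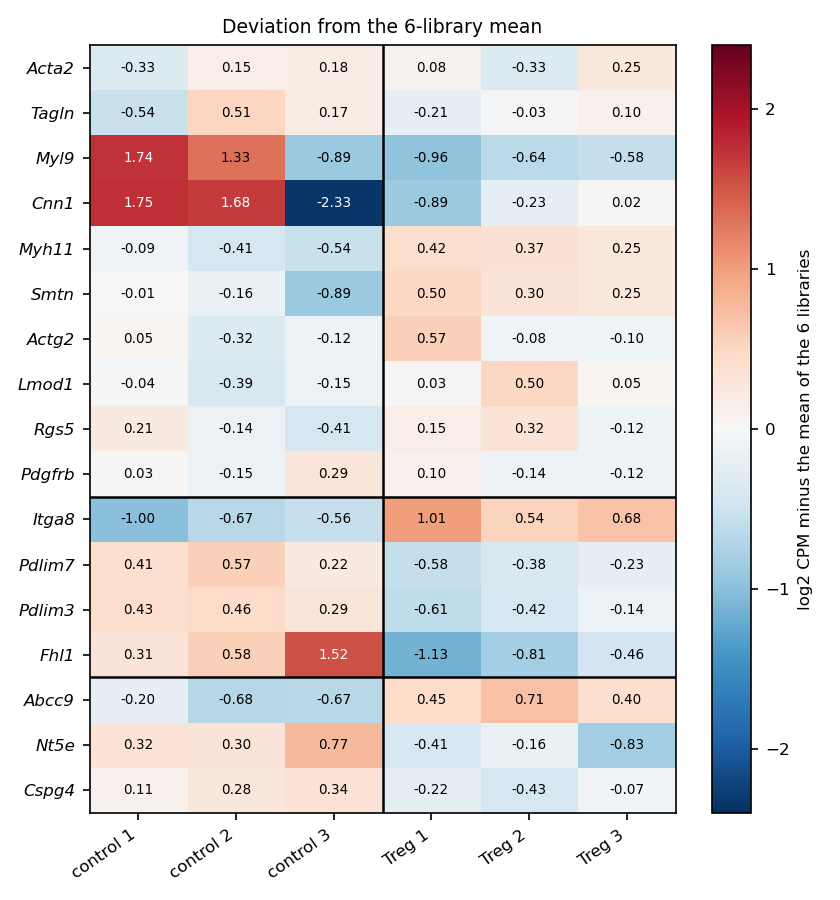
Heat map of log2 CPM minus the mean of the 6 libraries (red above, blue below, value in each cell) for the 10 genes (top block), 4 other smooth muscle genes (middle) and 3 other mural genes (bottom), with libraries in columns. Cnn1 spans 1.75 in control replicate 1 to −2.33 in control replicate 3, a wider range than any other gene shown, whereas Acta2 stays between −0.33 and 0.25.

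Srf and 4 factors that work with or against it had overlapping groups. Srf averaged 115.4 ± 16.4 CPM in the controls and 102.4 ± 16.8 in Treg, and its muscle-specific partner Myocd, myocardin, 35.7 ± 8.68 and 41.6 ± 4.14 (log2 fold changes −0.17 and 0.22, edgeR adjusted p = 0.617 and 0.579). The myocardin-related factors Mrtfa and Mrtfb, which enter the nucleus when actin polymerises, had 0.06 and 0.03, and Klf4, a repressor of the contractile genes, −0.41 (edgeR adjusted p = 0.845, 0.956 and 0.546). Without control replicate 3, Klf4 had 0.07, Mrtfb 0.36 and Myocd 0.03. Of 24 genes listed as regulators of this programme, 1 was higher and 3 lower at an unadjusted p under 0.05. Over all genes these shares were 8.23% and 8.31%. Of the 24, 0 passed adjustment, and their median was −0.11. The groups did not overlap for 1 higher and 4 lower genes of the list, beside 13.7% and 11.7% of all genes. The 3 lower genes by p were Ilk, a kinase at integrin adhesions, the coactivator Wwtr1 and the TEAD factor Tead3 (−0.48, −0.37 and −0.36). The values of Tead3 were 24.0, 19.4 and 26.2 CPM in control and 18.7, 18.5 and 17.0 in Treg, so that all Treg libraries lay below the controls. The higher one was Hrc, which encodes a calcium-binding protein of the cardiomyocyte's sarcoplasmic reticulum and is not a transcription factor, at 1.02 (edgeR adjusted p = 0.0989); DESeq2 called it (adjusted p = 7.58e-06; 7.58e-06 to 0.496 over the alternatives).

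Other genes listed with the smooth muscle contractile apparatus, not all of them parts of it, stood on both sides of 0. Of 39 tested, 0 passed adjustment, and the median was −0.13. At an unadjusted p under 0.05, 5 were higher and 10 lower, beside 8.23% and 8.31% of all genes. In 7 of the 39 all Treg libraries were above all controls and in 7 below, beside 13.7% and 11.7% of all genes. Itga8, the integrin alpha 8 chain of smooth muscle and mesenchymal cells, had 1.93, 2.45 and 2.66 CPM in the controls and 8.01, 5.77 and 6.34 CPM in the Treg libraries. The groups were far apart, with a log2 fold change of 1.51 ± 0.22 (edgeR adjusted p = 0.0931).

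The next 3 genes by p were lower in every Treg library. Pdlim7 and Pdlim3, PDZ and LIM proteins of actin bundles and the Z-disc, had −0.80 ± 0.15 and −0.77 ± 0.15, and Fhl1, a LIM protein that cardiomyocytes also express, −1.68 ± 0.34 (edgeR adjusted p = 0.116, 0.127 and 0.136). Without control replicate 3, 1.3% of all genes passed in edgeR, which called Itga8 higher (1.61, adjusted p = 0.0285) and 5 of the 39 lower. These were Pdlim7, Pdlim3 and Fhl1 (adjusted p = 0.0321, 0.0426 and 0.0426) and, named after their values were seen, Synm and Fbln5 (adjusted p = 0.0382 and 0.0399). Over the alternatives the adjusted p of Itga8 was 3.17e-06 to 0.496, of Pdlim7 0.000831 to 0.53, of Pdlim3 0.0023 to 0.53 and of Fhl1 8.32e-05 to 0.57; for Synm and Fbln5 it was 0.0382 to 0.631 and 0.0399 to 0.84. DESeq2 with all 6 libraries called 4 of the 39 higher and 7 lower, beside 3.9% of all genes in either direction. The 4 were Itga8 and, named after their values were seen, Hspb6, Sncg and Susd5. The 7 were Pdlim7, Pdlim3 and Fhl1 and, also named afterwards, Cald1, Dstn, Vcl and Actn1, each lower in every Treg library. These last 4 had −0.61 ± 0.14, −0.61 ± 0.13, −0.48 ± 0.13 and −0.84 ± 0.20 (edgeR adjusted p = 0.159, 0.136, 0.197 and 0.16). Hspb6, a small heat shock protein of muscle, had 0.62 ± 0.13, Sncg, a synuclein, 0.86 ± 0.20 and Susd5 1.54 ± 0.38 (edgeR adjusted p = 0.136, 0.16 and 0.173).

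The 30 further pericyte and mural genes were also divided. At an unadjusted edgeR p under 0.05, 6 were higher and 5 lower, beside 8.23% and 8.31% of all genes. Of the 30, 0 passed adjustment by edgeR, and their median was 0.08. Their summed level overlapped, at 1021.9 to 1121.8 CPM in control and 1007.2 to 1143.8 in Treg. Abcc9, the sulfonylurea receptor subunit of the potassium channel of pericytes, smooth muscle and cardiomyocytes, had 181.8, 130.3 and 130.6 CPM in the controls and 284.2, 341.5 and 274.4 CPM in the Treg libraries (1.02 ± 0.18, edgeR adjusted p = 0.114). All Treg libraries were above the controls, and per 100 CPM of Rgs5 the ranges were 33.0 to 39.8 and 58.8 to 68.4. Nt5e, the ectonucleotidase CD73, and Cspg4, the proteoglycan NG2 of pericytes, were lower in all Treg libraries, at −0.92 ± 0.21 and −0.48 ± 0.14 (edgeR adjusted p = 0.156 and 0.207). DESeq2 called Abcc9 higher and Nt5e lower (adjusted p = 0.00014 and 0.00795), beside 3.9% of all genes in either direction. Their ranges over the alternatives were 0.00014 to 0.496 and 0.00795 to 0.585.

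Among the 5 ligands and sister receptor of Pdgfrb, 1 was higher and 1 lower at an unadjusted edgeR p under 0.05. Over all genes these shares were 8.23% and 8.31%. By edgeR 0 of these relatives of Pdgfrb passed adjustment. Pdgfb, its main ligand from endothelium, had 28.9, 34.4 and 29.8 CPM in the controls and 26.7, 26.6 and 28.8 CPM in the Treg libraries, so that it was lower in each Treg library by a narrow margin (−0.18 ± 0.12, edgeR adjusted p = 0.472). Pdgfd, another of its ligands, was higher in all Treg libraries at 12.7 ± 0.975 against 8.19 ± 1.86 CPM (0.63 ± 0.20, edgeR adjusted p = 0.225). Pdgfa and Pdgfc, ligands of the alpha receptor, had −0.52 and −0.51, and the fibroblast receptor Pdgfra had −0.66, and without control replicate 3 these values were −0.24, −0.62 and −0.11 (edgeR adjusted p with all libraries 0.295, 0.431 and 0.388). Of the 9 other R4 family genes related to Rgs5, 6 were tested and 0 passed by edgeR. Rgs4, also expressed by mural cells, was higher in all Treg libraries at 17.4 ± 2.03 against 13.2 ± 1.85 CPM (0.40, edgeR adjusted p = 0.285). Rgs1, Rgs2, Rgs3, Rgs16 and Rgs18 overlapped between the groups.

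Genes of activated fibroblasts and myofibroblasts mostly had values below 0, but as a list they did not separate the groups. By edgeR 0 of 30 passed adjustment. Of the 30, 26 were below 0, beside 9038 of all 17365 genes, with a median of −0.33, and of −0.56 without control replicate 3. At an unadjusted edgeR p under 0.05, 0 were higher and 3 lower, beside 8.23% and 8.31% of all genes. The 3 were Lox, lysyl oxidase (−1.89), Tgfb2 (−0.76) and Ccn2 (−0.63), with edgeR adjusted p = 0.132, 0.164 and 0.285. DESeq2 called Lox and Tgfb2 lower (adjusted p = 3.68e-05 and 0.0168), beside 3.9% of all genes in either direction. Over the alternatives the adjusted p was 3.68e-05 to 0.53 for Lox and 0.0168 to 0.595 for Tgfb2. Loxl2, a lysyl oxidase relative, was next by p at −0.88 (edgeR adjusted p = 0.306), and −0.54 without control replicate 3. The summed level of the 30 genes overlapped, at 3647.9 to 5844.1 CPM in control and 2620.5 to 4239.6 in Treg. Over the 30 genes, the median of log2 CPM minus the mean of all libraries was 0.16, 0.5 and −0.28 in the controls. In Treg this median was −0.19, −0.41 and 0.27. Control replicate 3 thus lay below 0 and Treg replicate 3 above 0. The 26 genes below 0 therefore do not stand for a difference seen in every library. Endothelial cells of the vessel wall lie next to the mural cells. Their 15 markers had 0 genes at an unadjusted p under 0.05 by edgeR, beside 16.5% of all genes, and a median of 0.01. The summed level of these 15 markers was highest in control replicate 3, as given above. The 4 with the smallest p were Vwf, Cd36, Flt1 and Fabp4, at −0.33, −0.59, 0.26 and −0.55 (edgeR adjusted p = 0.336, 0.396, 0.456 and 0.476); without control replicate 3 Cd36 had −0.18 and Fabp4 0.02.

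**Figure D5:**
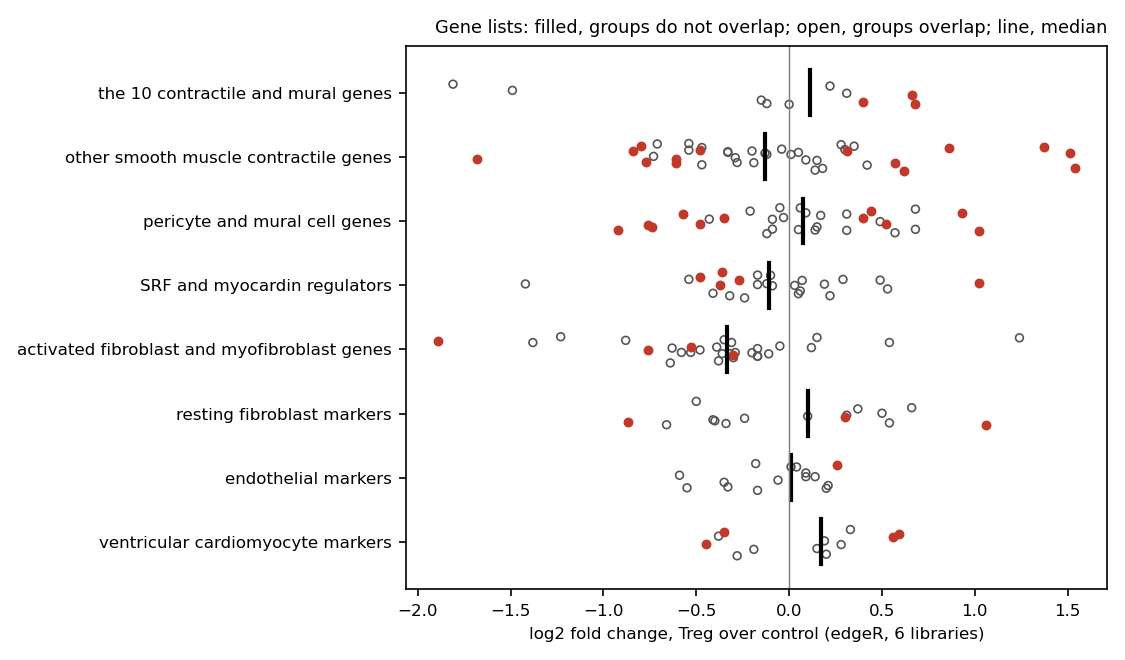
Log2 fold change of Treg over control (horizontal axis) of each tested gene in 8 lists, with the vertical scatter added for legibility; filled red points have groups that do not overlap, open points have groups that overlap, and the black line is the list median. The medians lie between −0.33 (activated fibroblast and myofibroblast genes) and 0.17 (ventricular cardiomyocyte markers), and the smooth muscle lists spread to both sides of 0.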

How the data were processed

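The authors deposited 1 table of estimated counts per Ensembl gene ID, not normalized; by library, 46.51% to 50.03% of nonzero values hold a fraction. The submitters' processing notes name GRCm38, featureCounts 2.0.6, HISAT2 2.1.0, Cuffdiff 2.2.1 and Trimmomatic 0.39, without their roles; counting options and annotation: not given in the sources used here. Another 6 columns match no sample listed here and were not used. Symbols (47224 of 47729 IDs), positions and exon lengths came from GENCODE M21, and promoter windows from RefSeq.

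Counts were rounded, filtered with filterByExpr, scaled with TMM and tested with edgeR 4.0.16 (R 4.3.3; robust quasi-likelihood F test, two-sided, no covariates, Benjamini-Hochberg over 17365 genes, threshold 0.05). The test had been set for raw counts. The SE is the log2 fold change over the square root of F. CPM use TMM-scaled library sizes, and log2 CPM a prior count of 2. Alternatives were DESeq2 1.42.0, limma-voom (limma 3.58.1), other scalings and filters, edgeR's newer dispersion method, removal of mitochondrially encoded genes, a replicate block and left-out libraries. The tests were checked on simulated counts.

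The members and the 15 other lists were chosen with earlier results of these data known. Named were all members, the 4 smallest p in each list described beyond its summed level, all PDGF, R4 RGS and actin genes, 5 regulators, and the 5 genes most like Acta2 and Rgs5; any others are said to be named afterwards, and 1 gene of the mural list is not reported here. The labels do not say that each library is a separate animal, so p-values measure the spread between libraries, which may be technical.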

Additional observations from a re-analysis of the deposited data

How the results depend on the processing

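Over 16 alternatives, 159 fold changes of the 10 genes were recomputed (Actg2 has none at a mean of at least 1 CPM): 145 kept their sign and their side of the threshold, 5 passed it and 9 changed sign, in 3 genes that were near 0. Acta2 had 0.003 with upper-quartile scaling, 0.03 with no filter, 0.005 at a mean of at least 1 CPM and −0.14 to 0.15 when single libraries were left out (above 0 when control replicate 2, control 3 or Treg 2 was left out); Tagln had −0.38 to 0.11 (above 0 without control replicate 2), and Pdgfrb −0.21 to 0.01 (above 0 without control replicate 3) and 0.03 without control replicate 3 and Treg replicate 3. The number of the 10 genes past adjusted p 0.05 was 0 with edgeR, 1 with DESeq2, 0 to 2 without single libraries and 2 without both replicates 3. Over all genes these numbers were 0, 650, 0 to 230 and 119, and 38 with no filter; over the 219 tested genes of the other lists 0, 20, 0 to 8 and 7, and 2 with no filter. The cause of these shifts was not tested. At unadjusted p under 0.05 there were 2 to 4 of the 10 without single libraries. At adjusted p 0.05, limma-voom passed 0 genes and so did the newer dispersion estimate of edgeR, with 2816 and 2925 at unadjusted p under 0.05. Deviations from the group means had r of −0.142, −0.236 and 0.042 between same-numbered libraries. Between a control and a Treg library of different numbers r was −0.237 to 0.309. With 3 libraries per group these values cannot decide whether the numbers pair the samples. With a replicate block, 0 of the 10 genes passed adjustment and 2 stood at unadjusted p under 0.05, and 0 genes passed in all. The least deeply counted of the 10 were Actg2 and Lmod1, at 20 to 83 counts per library.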

Other observations

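The striated, cytoplasmic and non-muscle relatives of the 10 genes mostly had values below 0. Of the 4 other actins 1 was above 0 and 3 below, with a median of −0.29. Of the 14 other paralogs tested 3 were above 0 and 11 below, with a median of −0.2. Over all 17365 genes 9038 were below 0, with a median of −0.02. Of the striated and cytoplasmic actins, Actc1, cardiac actin, was higher in all Treg libraries, at 3162.1 ± 177.4 against 2564.6 ± 295.1 CPM (0.30 ± 0.16), while Acta1, skeletal actin, Actb and Actg1 had −0.38, −0.62 and −0.21 with overlapping groups (edgeR adjusted p = 0.379, 0.546, 0.328 and 0.623). Myl6, the essential light chain that pairs with Myl9 in smooth muscle and non-muscle myosin, was lower in all Treg libraries at 164.1 ± 16.2 against 247.9 ± 44.5 CPM (−0.60 ± 0.17, edgeR adjusted p = 0.204). DESeq2 called Myl6 lower (adjusted p = 0.0381, and 0.0381 to 0.609 over the alternatives), beside 3.9% of all genes in either direction. Lmod3, the leiomodin of striated muscle, stood at 57.3, 60.7 and 35.6 CPM in control and 86.0, 81.8 and 83.3 in Treg (0.71 ± 0.20, edgeR adjusted p = 0.206), and Smtnl2, a smoothelin-like protein, had 0.64 ± 0.20 (edgeR adjusted p = 0.223), also with all Treg libraries above the controls. Myl12a, a regulatory light chain of non-muscle myosin, was lower in all Treg libraries (−0.36 ± 0.14, edgeR adjusted p = 0.28). Of the 14 paralogs tested, 0 passed adjustment by edgeR. At an unadjusted p under 0.05, 2 were higher and 3 lower, beside 8.23% and 8.31% of all genes.

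The genes whose values over the 6 libraries were most like those of Myl9 and Cnn1 were looked up after their values were seen. For Myl9 the nearest was Star, the steroidogenic acute regulatory protein, at 43.1, 35.8 and 9.19 CPM in control and 7.45, 15.4 and 15.4 in Treg (root mean square difference 0.35 on the log2 scale), followed by Muc15, Uchl1, Serpinb1a and Rasgef1a at 0.38 to 0.41. For Cnn1 the nearest were Mgat5b, Ckmt1, a mitochondrial creatine kinase, and Col11a1, a fibrillar collagen chain, at 0.34, 0.40 and 0.44, followed by Myl9 itself and Star, both at 0.68. Col11a1 stood at 40.3, 62.1 and 5.82 CPM in control and 15.2, 18.7 and 26.8 in Treg, so that, as for Cnn1, control replicate 3 was lowest and the other controls highest.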
